A study of Rattus norvegicus with 6 samples.

Results

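Glutathione transferases and the enzymes that remove superoxide and peroxides were followed here through 10 genes: Gsta4, Gstm1, Gstp1, Gpx1, Gpx4, Cat, Sod1, Sod2, Sod3 and Ephx1. They were taken as every probe set annotated with exactly 1 of these symbols, which gave 11 of the 31042 probe sets on the array after controls were left out, and 10 of the 14217 genes those name. Gpx4 had 2 probe sets and each other gene had 1. All 11 passed the filter on dim probe sets, which kept 21729 in all, and 0 of them shared its annotation with a second gene.

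The samples were 3 cultures of rat aortic smooth muscle cells that flow at 14 dyn/cm2 had sheared for 24 h and 3 static control cultures, all of passage 3 to 5. Before the experiment every culture was kept for 24 h without serum, in medium with 0.1% albumin, after growth in 10% serum. Each sheared culture carries the pairing number of a static one, but no source says what a pair had in common. The p-values thus reflect differences among these 6 cultures, some of which may be technical. These are cultured cells in a parallel-plate flow chamber, and any other difference between chamber and static culture cannot be told apart from shear stress. The comparison addresses which transcripts differ under flow in this cell type.

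Superoxide, formed by mitochondria and by NADPH oxidases, is turned into hydrogen peroxide by superoxide dismutases. Hydrogen peroxide is then removed by catalase in peroxisomes, by glutathione peroxidases, which use glutathione, and by peroxiredoxins. Glutathione transferases join glutathione to reactive lipid products and other electrophiles, and many genes of this system have antioxidant response elements, to which the factor NRF2 binds. In the vessel wall smooth muscle cells are a main source of the extracellular superoxide dismutase.

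The members split in direction. Of the 11 probe sets, 4 rose in sheared cells (Sod2, Cat, Gstp1 and Gsta4), 3 fell (Gpx1, Sod1 and the brighter Gpx4 probe set) and 4 did not pass (Gstm1, Ephx1, Sod3 and the dimmer Gpx4 probe set). These 7 calls are 63.6% of the members' probe sets, against 52.8% of all 21729 tested (24.3% rose and 28.5% fell), so the share called is near the background of a broad response. By the brightest probe set of each gene 70.0% of the members passed, against 57.9% of all genes tested. Calls came from limma at a threshold of 0.05, after a Benjamini-Hochberg adjustment across the whole table. Changes are given as sheared minus static on the log2(signal + 16) scale, in which the signal is the linear MAS5 intensity. The members' median was 0.01, against a median of -0.07 over all probe sets tested. Under quantile normalization the median of all probe sets was 0.02 and under median centring it was 0.08. Median centring moved Gstm1, for example, from 0.21 to 0.36 and the brighter Gpx4 probe set from -0.31 to -0.16. Changes of the size of such shifts thus depend on the scaling.

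Promoters are shown for the 2 members with the largest called changes, Sod2 and Gpx1, and for the other 2 members in which a motif was found. Each is the window of 250 bases before to 50 bases after a gene start in RefSeq's annotation of the rat genome build GRCr8, written 5′ to 3′ on the strand of the gene. Capitals mark the antioxidant response element core TGACNNNGC on either strand and the AP-1 motif TGANTCA, which reads the same on both strands. The 2 motifs can overlap, as they do in Gstp1 and Ephx1.
Sod2, chr1:50050119-50050418, minus strand: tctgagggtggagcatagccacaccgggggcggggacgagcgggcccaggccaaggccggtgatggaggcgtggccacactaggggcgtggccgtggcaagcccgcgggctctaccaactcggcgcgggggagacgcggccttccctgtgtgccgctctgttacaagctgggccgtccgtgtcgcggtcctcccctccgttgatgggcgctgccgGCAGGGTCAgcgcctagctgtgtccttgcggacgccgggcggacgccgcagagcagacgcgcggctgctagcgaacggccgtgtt
Gstp1, chr1:210769656-210769955, minus strand: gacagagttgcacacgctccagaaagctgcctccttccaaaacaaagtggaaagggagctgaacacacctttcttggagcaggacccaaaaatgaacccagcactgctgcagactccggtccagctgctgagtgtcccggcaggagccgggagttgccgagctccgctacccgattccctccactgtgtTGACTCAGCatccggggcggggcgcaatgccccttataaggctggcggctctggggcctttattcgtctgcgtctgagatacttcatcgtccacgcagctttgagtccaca
Ephx1, chr13:95263068-95263367, minus strand: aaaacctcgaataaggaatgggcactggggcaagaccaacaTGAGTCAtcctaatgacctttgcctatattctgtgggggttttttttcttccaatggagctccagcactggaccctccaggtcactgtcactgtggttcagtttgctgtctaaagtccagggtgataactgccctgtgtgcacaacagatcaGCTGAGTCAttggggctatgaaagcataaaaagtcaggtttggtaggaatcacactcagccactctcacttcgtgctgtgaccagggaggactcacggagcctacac
Gpx1, chr8:117905212-117905511, plus strand: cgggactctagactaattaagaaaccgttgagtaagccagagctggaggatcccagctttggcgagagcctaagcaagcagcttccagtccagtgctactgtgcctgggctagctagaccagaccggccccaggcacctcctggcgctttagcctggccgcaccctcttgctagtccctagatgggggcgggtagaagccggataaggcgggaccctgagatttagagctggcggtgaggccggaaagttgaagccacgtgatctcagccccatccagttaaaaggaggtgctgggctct

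The Gstp1 match began 61 bases before the start and held both motifs in one stretch. In Sod2 the antioxidant response element core lay on the opposite strand and began 35 bases before the start. Ephx1 had 2 annotated windows, and the one shown held a core that began 57 bases before the start and AP-1 motifs that began 209 and 55 bases before it. The Gpx1 window held neither motif, nor did those of Gsta4, Gstm1, Gpx4, Cat and Sod1. Sod3 was not searched, so the windows are those of 9 genes. The core was thus found in 3 of the members' 12 windows, against 12.1% of all 33469 windows of that length, and the AP-1 motif in 2, against 7.33%. A match describes letters in a window and does not show binding.

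**Figure D1:**
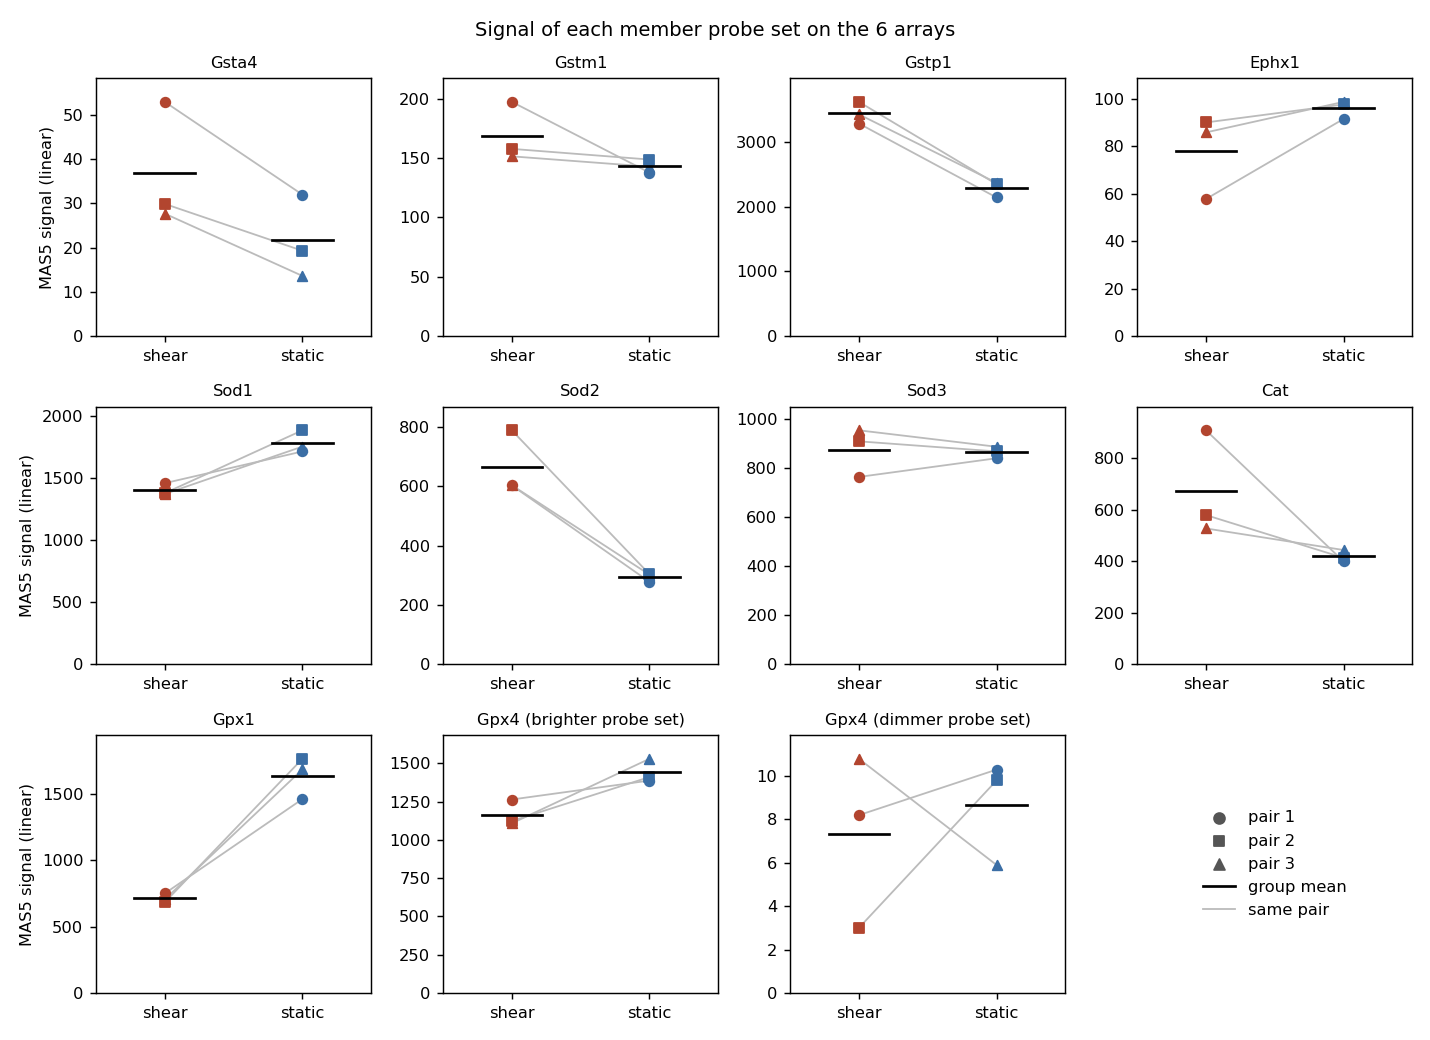
Linear MAS5 signal (vertical axis, from 0) of each of the 11 probe sets in sheared cultures (left) and static cultures (right), with marker shapes for pairs 1 to 3, grey lines joining a pair and black bars for group means (n = 3). Sod2, Cat, Gstp1 and Gstm1 had every sheared array above every static one, and Gpx1, Sod1, Ephx1 and the brighter Gpx4 probe set had every sheared array below.

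Among the superoxide dismutases the mitochondrial manganese enzyme rose, the cytosolic copper-zinc enzyme fell and the extracellular enzyme did not pass. Sod2 (1370172_at), which encodes the manganese enzyme, had signals of 603.6, 789.3 and 604.1 in sheared cultures 1 to 3, against 278.6, 304.3 and 302.7 in static cultures 1 to 3. The lowest sheared value lay well above the highest static one. Its mean was 666 ± 107 in sheared and 295 ± 14.4 in static cells (SD, n = 3), a ratio of 2.25. On the log2 scale it rose by 1.12 (95% interval 0.89 to 1.36, adjusted p = 6.8e-05), and pairs 1 to 3 gave 1.07, 1.33 and 0.96. Of all probe sets tested, 4.58% rose at least as much.

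Sod1 (1367641_at), the copper-zinc enzyme of the cytosol, had signals of 1458.0, 1377.6 and 1371.1 in sheared cultures, against 1713.1, 1883.2 and 1752.3 in static cultures. The groups did not overlap, and the sheared arrays lay below the static ones in every pair. The mean was 1402 ± 48.4 in sheared and 1783 ± 89.1 in static cells (SD, n = 3), and the log2 change was -0.34 (95% interval -0.50 to -0.18, adjusted p = 0.0037). This is a small change in a wide response, since 29.5% of all probe sets tested fell at least as far. It was nearer 0 after median centring (-0.19, adjusted p = 0.045).

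Sod3 (1368322_at), the secreted copper-zinc enzyme, had signals of 762.9, 907.8 and 952.6 in sheared cultures, against 838.9, 866.6 and 885.7 in static cultures. The groups overlapped, with sheared arrays both below and above the static range. The log2 change was 0.01 (95% interval -0.18 to 0.20, adjusted p = 0.92), so the interval holds changes of that size in either direction. The pair differences of the 3 dismutases did not overlap: 0.96 to 1.33 for Sod2, -0.13 to 0.10 for Sod3 and -0.45 to -0.23 for Sod1.

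Copper reaches Sod1 and Sod3 through importers, pumps and chaperones, and 7 genes of copper handling were tested. Of these 4 rose, 0 fell and 3 did not pass, with a median of 0.52, against -0.05 over the 11248 genes tested. Of all those genes 27.8% rose and 30.1% fell, which is the background for the counts of every list. The copper importer Slc31a1 rose by 0.52 (adjusted p = 0.0086) on its brightest probe set, and its 4 probe sets ran from 0.27 to 1.41. Of these 1 did not pass, and the Slc31a1 call was lost without pair 2 or pair 3 (adjusted p up to 0.072). Its relative Slc31a2 rose by 0.52 (adjusted p = 0.0043) and the copper pump Atp7a by 0.54 (adjusted p = 0.0026). Cox17, a copper chaperone of mitochondria that is not on the route to Sod1 and Sod3, rose by 0.73 (adjusted p = 0.00055). Of the 3 Atp7a probe sets 1 did not pass. Ccs, the chaperone that loads copper into Sod1 and was picked out after its values were seen, had -0.23 (adjusted p = 0.13). By limma's unadjusted p at the same threshold 0 genes of the list were lower as well, but 2 fell without pair 1.

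Of the genes that form superoxide or peroxide, 16 were tested, of which 3 rose, 3 fell and 10 did not pass (median -0.04). The NADPH oxidase Nox4, which releases hydrogen peroxide and is the main such oxidase of vascular smooth muscle, had signals of 41.9, 46.0 and 40.1 in sheared cultures, against 98.0, 186.5 and 174.7 in static cultures. It fell by 1.48 on the log2 scale (adjusted p = 0.00022). Its partner subunit Cyba, picked out after its values were seen, had -0.23 (adjusted p = 0.078). The endoplasmic reticulum oxidase Ero1b (-0.69, adjusted p = 0.0028) and the monoamine oxidase Maoa (-0.45, adjusted p = 0.023) fell as well, whereas the related oxidase Ero1a (0.89, adjusted p = 0.011) and the spermine oxidase Smox (0.60, adjusted p = 0.0052) rose. The Ero1a change differed between pairs, from 0.10 in pair 1 to 1.29 in the highest pair. The Rac1 GTPase, a regulator of NADPH oxidases, rose by 0.34 on its brighter probe set (adjusted p = 0.0027) and fell on the other (-0.40), and as a mean over both it did not pass (-0.03, adjusted p = 0.66). Maoa also did not pass without the pair block or after median centring (adjusted p up to 0.17 over its alternatives). Of the list 5 genes rose after median centring, and 5 fell without pair 1.

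Of the peroxide-removing members, catalase rose and Gpx1 fell. Gpx4 fell on its brighter probe set alone, a call kept under 9 of 14 alternatives. Cat (1367995_at), the peroxisomal enzyme that splits hydrogen peroxide, had signals of 908.0, 579.3 and 527.4 in sheared cultures, against 399.3, 413.4 and 443.7 in static cultures. The groups did not overlap, but sheared culture 1 stood far above the other sheared cultures. Catalase rose by 0.62 on the log2 scale (95% interval 0.25 to 1.00, adjusted p = 0.013). Pair 1 gave 1.15, pair 2 gave 0.47 and pair 3 gave 0.24. Without pair 1 it was 0.36 (adjusted p = 0.00051), where 1 degree of freedom was left for the error.

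Gpx1 (1367576_at), the main glutathione peroxidase of cytosol and mitochondria, fell furthest. Its signals were 750.0, 683.3 and 704.7 in sheared cultures, against 1461.9, 1766.0 and 1685.6 in static cultures. No sheared array came near the static range. The mean was 713 ± 34.1 in sheared and 1638 ± 158 in static cells (SD, n = 3), a ratio of 0.435. The log2 change was -1.18 (95% interval -1.39 to -0.97, adjusted p = 3.2e-05), and only 6.69% of all probe sets tested fell at least as far. In pairs 1 to 3 the change was -0.95, -1.35 and -1.24.

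Gpx4 encodes the peroxidase that reduces lipid hydroperoxides within membranes and so guards against ferroptosis. Its brighter probe set (1386871_at) had signals of 1264.1, 1123.2 and 1108.4 in sheared cultures, against 1388.0, 1411.0 and 1530.3 in static cultures. The groups did not overlap, and the log2 change was -0.31 (95% interval -0.49 to -0.12, adjusted p = 0.013). This was a small change, since 31.9% of all probe sets tested fell at least as far. The call was lost after median centring (-0.16, adjusted p = 0.13), without pair 2 (-0.30, adjusted p = 0.069), without pair 3 (-0.23, adjusted p = 0.17), without the intensity trend (adjusted p = 0.062) and as a mean over both probe sets (-0.20, adjusted p = 0.14). Its dimmer probe set (1391529_at) had signals of only 3.0 to 10.8 in sheared and 5.9 to 10.3 in static cultures. The groups overlapped, with a log2 change of -0.09 (95% interval -0.49 to 0.31, adjusted p = 0.69).

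**Figure D2:**
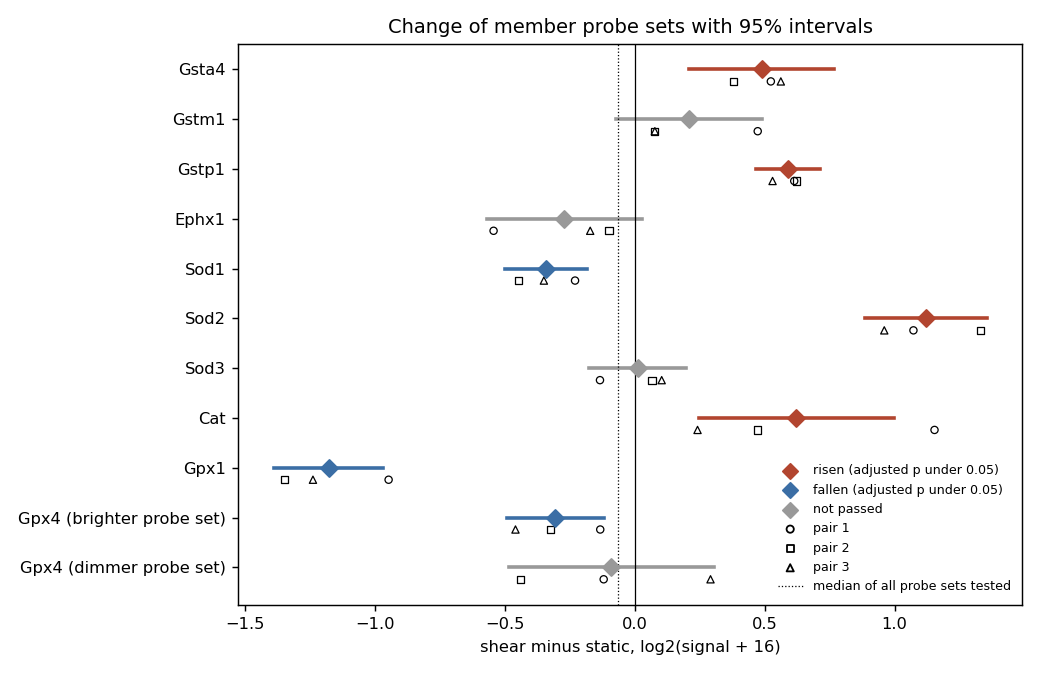
Change of the 11 probe sets (horizontal axis, sheared minus static, log2(signal + 16)), with diamonds for the limma estimate, bars for its 95% interval, open markers for pairs 1 to 3 and a dotted line at the median of all probe sets tested (-0.07). Gpx1 (-1.18) and Sod2 (1.12) lie furthest from 0, and the pairs of Cat spread from 0.24 to 1.15.

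Gpx1 and Gpx4 are selenoproteins, which carry selenocysteine and need their own synthesis machinery. Of 16 genes of that machinery and of other selenoproteins, 5 rose, 7 fell and 4 did not pass, with a median of -0.17. Selenoprotein W, Selenow, had signals of 223.5, 219.6 and 194.1 in sheared cultures, against 355.3, 483.7 and 403.3 in static cultures, and fell by 0.90 on the log2 scale (adjusted p = 0.00039). Selenot (-0.64, adjusted p = 0.00019) and Selenom (-0.52, adjusted p = 0.00086), both of the endoplasmic reticulum, fell, though 1 of 2 Selenot probe sets did not pass. Sephs1, related to the enzyme that makes selenophosphate, fell by 1.11 (adjusted p = 0.00012), with 1 of 4 probe sets not passing.

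The 5 that rose included the selenocysteine factors Secisbp2 (0.49), Trnau1ap (0.41) and Eefsec (0.34), with Selenos (0.43) and the selenium carrier Selenop (0.44). Of these calls Selenos alone was kept under every alternative tried. Only 2 genes of the list rose without pair 2, and 1 without pair 3. Scly, Selenof and Msrb1 also fell.

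Outside the members, 15 other peroxidases, peroxiredoxins and their electron donors were tested: 7 rose, 5 fell and 3 did not pass (median 0.16). The largest rises were in sulfiredoxin Srxn1, which repairs overoxidised peroxiredoxins (3.46, adjusted p = 1.8e-06), and thioredoxin reductase Txnrd1, itself a selenoprotein (2.89, adjusted p = 1.6e-06). Prdx6, a peroxiredoxin that uses glutathione, had signals of 2105.4, 2192.6 and 2110.8 in sheared cultures, against 938.2, 830.2 and 911.0 in static cultures (1.24, adjusted p = 9.6e-06). Prdx5 rose by nearly as much (1.19, adjusted p = 8.5e-06), and neither overlapped between the groups.

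The 5 of that list that fell were Gpx8, Gpx7, Prdx2, Txnrd2 and Pxdn. Gpx8, a peroxidase of the endoplasmic reticulum, had signals of 1240.5, 1098.4 and 1010.5 in sheared cultures, against 2194.1, 2169.5 and 2077.3 in static cultures, and fell by 0.94 (adjusted p = 2.6e-05). Gpx7, of the same compartment, fell by 0.43 (adjusted p = 0.0029) and the cytosolic peroxiredoxin Prdx2 by 0.34 (adjusted p = 0.0035). Gpx7 did not pass without pair 3 (adjusted p = 0.051). Txnrd2 (-0.34, adjusted p = 0.04) and Pxdn (-0.25, adjusted p = 0.036) lost their calls under several alternatives, among them the fit without the pair block, so that 3 fell there. The number that fell was 3 without pair 2 and 2 without pair 3. The secreted peroxidase Gpx3, picked out after its values were seen, rose by 0.35 (adjusted p = 0.0041).

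Of the glutathione transferase members, Gstp1 and Gsta4 rose and Gstm1 did not pass. Gstp1 (1388122_at), the pi class enzyme, had signals of 3287.8, 3623.4 and 3429.9 in sheared cultures, against 2143.2, 2349.6 and 2370.2 in static cultures. The groups were far apart for their spread. The mean was 3447 ± 168 in sheared and 2288 ± 126 in static cells (SD, n = 3), a ratio of 1.51. Gstp1 rose by 0.59 on the log2 scale (95% interval 0.47 to 0.71, adjusted p = 6.8e-05). Its pairs 1 to 3 were close together at 0.61, 0.62 and 0.53, and 14.7% of all probe sets tested rose at least as much.

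Gsta4 (1372297_at), the alpha class enzyme that conjugates the lipid peroxidation product 4-hydroxynonenal, was dim. Its signals were 53.0, 29.9 and 27.7 in sheared cultures, against 32.0, 19.3 and 13.6 in static cultures. Every sheared culture was above its own static partner, but the groups overlapped, since static culture 1 exceeded sheared cultures 2 and 3. Within pairs it rose by 0.49 on the log2 scale (95% interval 0.21 to 0.77, adjusted p = 0.010), by 0.52, 0.38 and 0.56 in pairs 1 to 3. The call rests on the pairing: without the pair block the adjusted p was 0.088, with the pair as a random block 0.073, and without pair 3 0.073. Its size depends on the pseudocount, at 0.76 with 1 and 0.23 with 64.

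Gstm1 (1386985_at), a mu class enzyme, had signals of 197.2, 157.6 and 151.3 in sheared cultures, against 137.6, 148.6 and 142.6 in static cultures. The groups did not overlap, although sheared culture 1 stood above the rest and the other pairs differed little. Its estimate was 0.21 on the log2 scale (95% interval -0.07 to 0.49, adjusted p = 0.19), from pair differences of 0.47, 0.08 and 0.08. It passed only after median centring (0.36, adjusted p = 0.030). How far its probes tell apart the closely related mu class genes was not tested.

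Ephx1 (1387669_a_at), the microsomal epoxide hydrolase, opens reactive epoxides to diols. Its signals were 57.8, 90.1 and 85.9 in sheared cultures, against 91.6, 97.7 and 98.8 in static cultures. All sheared arrays were below all static ones, with sheared culture 1 lowest by far. Its estimate was -0.27 on the log2 scale (95% interval -0.57 to 0.03, adjusted p = 0.11), from pair differences of -0.54, -0.10 and -0.17. Counted over all members, 8 of 11 probe sets did not overlap between the groups, 4 with sheared arrays above and 4 below, against 60.0% of all probe sets tested (27.1% above and 32.9% below).

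Of the other glutathione transferases 18 genes were tested, of which 6 rose, 5 fell and 7 did not pass (median -0.08). These counts are near the background, since 27.8% of all genes tested rose and 30.1% fell. All 3 enzymes named microsomal glutathione transferases fell: Mgst2 by 1.95 (adjusted p = 1.1e-05), Mgst3 by 0.83 (adjusted p = 0.00069) and Mgst1 by 0.31 (adjusted p = 0.049). Ptges, the microsomal prostaglandin E synthase of the same list, did not pass (0.12, adjusted p = 0.46). Mgst2 had signals of 66.1, 64.2 and 71.1 in sheared cultures, against 355.3, 281.3 and 281.7 in static cultures. Mgst1 kept its direction but lost its call under 6 of 14 alternatives, quantile normalization and median centring among them. The transferase-like gene Gstcd (-0.97, adjusted p = 0.00023) and the theta class Gstt3 (-0.66, adjusted p = 0.013) fell too, and Gstt3, at only 0.4 to 6.9 in sheared and 13.3 to 18.9 in static cultures, lost its call without pair 2 (adjusted p = 0.072).

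The 6 that rose were Gsta1 of the alpha class, Gstm2 and Gstm4 of the mu class, Gsto1 and Gsto2 of the omega class and Gstt1 of the theta class. These classes were not uniform, since Gstm5 of the mu class did not pass (0.04, adjusted p = 0.77) and Gstt3 fell. Gsta1 had signals of 3357.5, 3245.5 and 3153.4 in sheared cultures, against 2001.9, 2458.5 and 2442.9 in static cultures (0.50, adjusted p = 0.0012). The other five were named after their values were seen. Gstt1, which like Gstt3 was dim, had signals of 21.6, 17.9 and 24.5 in sheared cultures, against 8.2, 3.2 and 13.0 in static cultures (0.65, adjusted p = 0.0047). The groups did not overlap, but the size ran from 0.24 to 1.44 over the alternatives. Gstm2 (0.34, adjusted p = 0.013), Gstm4 (0.36, adjusted p = 0.027), Gsto1 (0.35, adjusted p = 0.0075) and Gsto2 (0.38, adjusted p = 0.047) each lost the call without pair 2. Gstm2 and Gstm4 also lost it without pair 3. The dim Gsto2 lost it with any pair left out, without the filter and with a pseudocount of 1. Without pair 2 only 2 of the list rose and 3 fell, and without pair 3 the number that rose was 3.

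Of 14 genes of glutathione supply that were tested 8 rose, 2 fell and 4 did not pass, with a median of 0.82. The cystine importer Slc7a11 (4.65, adjusted p = 1.2e-06), the glutamate-cysteine ligase subunit Gclm (2.28, adjusted p = 6.8e-06) and glutathione synthetase Gss (1.52, adjusted p = 1.1e-05) rose, as did Pgd, which makes NADPH (1.37, adjusted p = 1.0e-05). Glutathione reductase Gsr, picked out after its values were seen because it returns the glutathione that Gpx1 oxidises, had signals of 341.2, 354.0 and 366.2 in sheared cultures, against 102.6, 68.1 and 93.1 in static cultures (1.85, adjusted p = 2.0e-05). The glutaredoxins Glrx (-0.77, adjusted p = 0.00053) and Glrx2 (-0.53, adjusted p = 0.0016) fell, though the other Glrx2 probe set rose by 0.72 and their mean did not pass (0.10, adjusted p = 0.42).

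Of 26 other detoxification enzymes and pumps 12 rose, 6 fell and 8 did not pass (median 0.09). The aldose reductase Akr1b1 (1.58, adjusted p = 7.6e-06), Ugdh, which makes the sugar donor for glucuronidation (1.55, adjusted p = 6.1e-06), the aldehyde dehydrogenase Aldh3a1 (1.36, adjusted p = 0.00012) and the cytochrome Cyp1b1 (0.58, adjusted p = 9.8e-05) rose. The other Akr1b1 probe set rose by only 0.42. Aldh3a1 was at 21.9 to 30.8 in sheared and 0.6 to 1.4 in static cultures, so its size depends on the pseudocount. The soluble epoxide hydrolase Ephx2, picked out after its values were seen beside Ephx1, was dim and fell by 0.52 (adjusted p = 0.012), a call lost without pair 3 (adjusted p = 0.079).

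**Figure D3:**
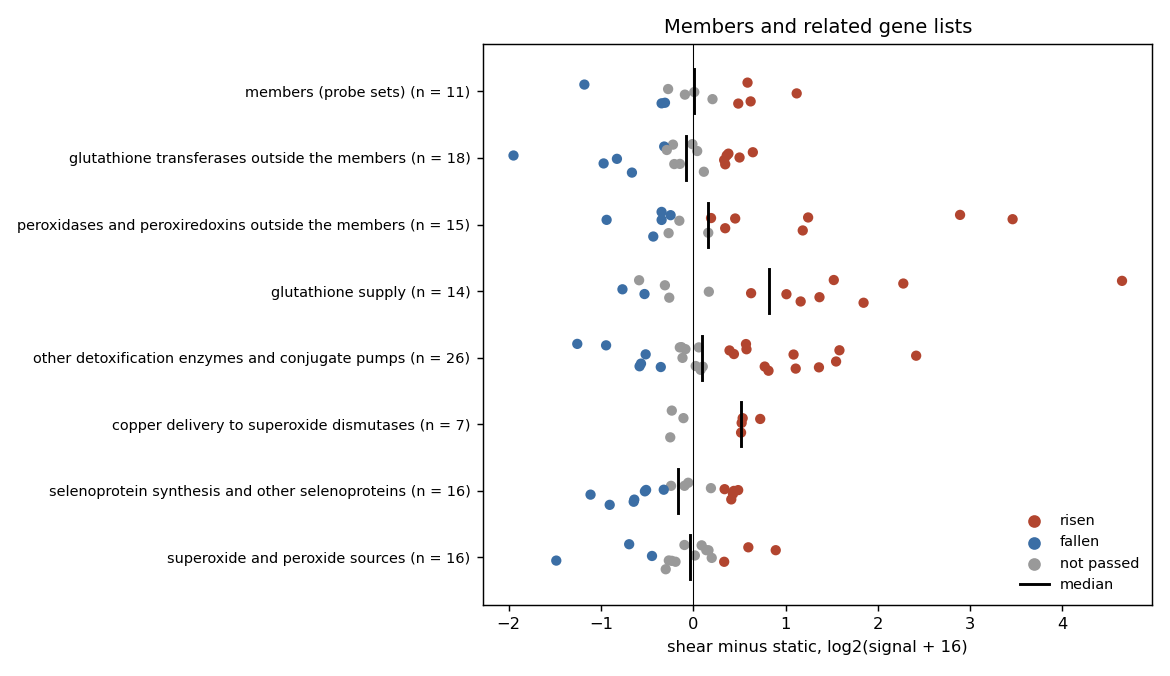
Change (horizontal axis, sheared minus static, log2(signal + 16)) of the members' 11 probe sets and of each gene tested in 7 related lists, by the brightest probe set of a gene, with colours for genes that rose, fell or did not pass and black bars for medians. The glutathione supply list has the highest median (0.82), and the members' median is 0.01.

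The median signal of an array was 17.3 to 18.9 in sheared and 21.1 to 22.6 in static cultures, without overlap, while the mean without the highest and lowest 2% of values was 100.0 on each. Median centring, which removes the difference in medians, ended the Gpx4 call and made Gstm1 pass. All 8 smooth muscle markers were tested, and 6 of them fell, with a summed signal of 6318 to 6644 in sheared and 7965 to 9075 in static cultures. Endothelial markers summed to 37.6 to 60.4 in sheared and 49.1 to 57.0 in static cultures over 7 genes, of which 5 lay below the filter. Leukocyte markers (8 genes, 4 below the filter, 2 risen and 1 fallen) summed to 139 to 183 in sheared and 187 to 241 in static cultures. Most of that sum was Cd14, at 81.9 to 122.8 in sheared and 148.8 to 200.9 in static cultures, which fell (-0.68, adjusted p = 0.00096), while Cd68 (0.70, adjusted p = 0.0037) and Coro1a (0.44, adjusted p = 0.027) rose. Red cell markers (4 genes, 3 below the filter) summed to 26.5 to 39.6 in sheared and 23.1 to 26.6 in static cultures. Fibroblast markers (6 genes, all tested, 1 risen and 3 fallen) summed to 2790 to 4565 in sheared and 4054 to 5678 in static cultures. None of the measured markers was listed at exactly 0 on any array. As a sign of RNA quality, the 3′ over 5′ log2 ratio averaged 0.156 ± 0.0061 in sheared and 0.166 ± 0.0097 in static cells for Gapdh (SD, n = 3, two-sided exact permutation p = 0.3), and 0.392 ± 0.028 in sheared and 0.254 ± 0.036 in static cells for beta-actin (exact permutation p = 0.1, the smallest possible). These permutation tests took the arrays as unpaired. The part of marker levels and of RNA quality in the members' changes was not tested.

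**Figure D4:**
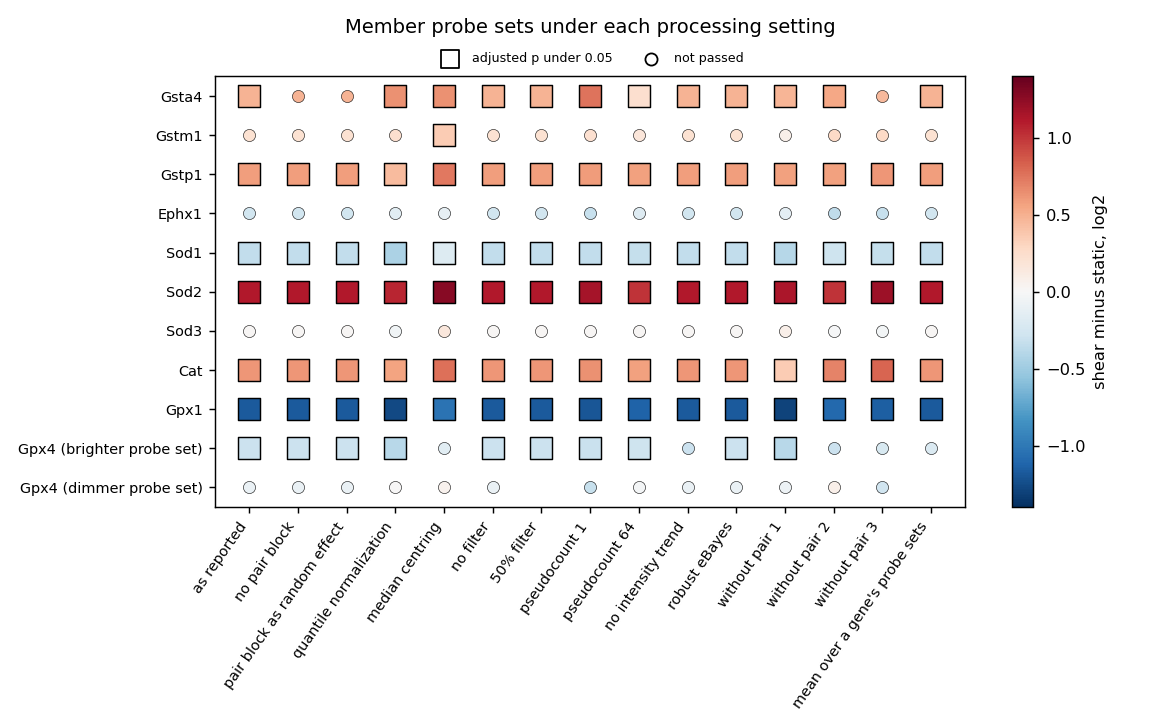
Change of the 11 probe sets (colour, sheared minus static, log2) under the setting reported and 14 alternatives (horizontal axis), with large squares where the adjusted p was under 0.05 and small circles where it was not. Gpx1, Sod1, Sod2, Cat and Gstp1 are squares in every column, Gsta4 and the brighter Gpx4 probe set are not, and the dimmer Gpx4 probe set has no value in 2 columns.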

How the data were processed

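Expression was measured on Affymetrix rat arrays in 3 sheared and 3 static cultures. The deposited values are intensity per probe set on a linear scale, made by the authors with MAS5 per the submitters' processing notes; the MAS5 version was not found in the labels, and detection calls were not used. The number of arrays limits the precision. The platform annotation names 1 gene for 20826 of 31042 probe sets, several genes for 436 and no gene for 9780; 20758 of the first were matched by gene identifier in RefSeq's GRCr8 table, which changed 0 symbols. Coordinates are printed for RefSeq promoters alone.

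The linear model was limma's (version 3.58.1, under R 4.3.3), on log2(signal + 16), with group and pairing number as terms and eBayes moderation that follows the intensity trend. A filter removed the dimmest 30% of probe sets by their mean of log2(signal + 16) over the arrays (limit 4.50 on that log2 scale). P-values were two-sided. Deviations from group means correlated by 0.071, 0.065 and 0.063 within pairs 1 to 3, and by -0.071 to 0.018 between arrays of different pairs. The within-pair values were small and positive, and each lay above every value between arrays of different pairs. Deviations from a group mean cancel out within the group, which ties the values between pairs to those within pairs. Neither the values between pairs nor their distance from those within pairs can thus show whether the pairs share anything. The pairing is taken from the labels. A gene in a list is given by its probe set with the highest mean.

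The members and the 7 lists (141 entries) were chosen with earlier results of these data known. The rule for named genes took all members and, per list, up to 4 genes with the smallest p that passed with the same sign in every pair; other list genes, among them those of small counts, were named after their values were seen. The lists were glutathione transferases, peroxidases and peroxiredoxins, glutathione supply, other detoxification enzymes, copper delivery, selenoproteins, and superoxide and peroxide sources. As alternatives the block was dropped or made random, arrays were rescaled by quantiles or by their medians, the filter was removed or raised to 50%, the pseudocount was set to 1 or 64, eBayes was run robustly or without the trend, each pair was left out in turn, and probe sets of one gene were averaged. Figures were drawn with matplotlib 3.10.9.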

Additional observations from a re-analysis of the deposited data

How the results depend on the processing

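Of 152 values of single member probe sets under 14 alternatives, 137 kept their direction and their side of the threshold. Gpx1, Sod1, Sod2, Cat and Gstp1 kept theirs under all 14, and so did Ephx1, which passed under none. Gstm1 passed after median centring alone. Without the replicate block, 3 of the members' probe sets rose, Gsta4 no longer passing (adjusted p = 0.088), and 3 fell; no other member's call changed there. Sod3 turned to -0.050 after quantile normalization, and ran from -0.034 to 0.085 with a pair left out (-0.016 without pair 2, -0.034 without pair 3). The dimmer Gpx4 probe set turned to 0.0088 after quantile normalization, 0.059 after median centring and 0.086 without pair 2 (-0.28 to 0.086 with a pair left out), passed under none, and had no value with the 50% filter or as part of a gene mean. The cause of these turns was not tested, and none of those values passed.

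Counts over all probe sets stayed within 1.5 times in every alternative. Among lists, superoxide and peroxide sources had 5 risen after median centring. Peroxidases and peroxiredoxins had 3 fallen without the block, with a random block, after median centring and without the filter, and 2 to 6 with a pair left out. With a pair left out, glutathione transferases had 2 to 5 risen and 3 to 5 fallen, selenoproteins 1 to 6 risen, copper delivery 0 to 2 fallen, and superoxide and peroxide sources 2 to 5 fallen. Glrx2 (0.097) and Rac1 (-0.030) turned when their probe sets were averaged. Fits with a pair left out rest on 1 residual degree of freedom. Signals near background limit Gsta4, Gstt1, Gstt3, Gsto2, Aldh3a1, Ephx2, Smox, Ero1b and the dimmer Gpx4 probe set, among others.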
